A study of Glycine max with 4 samples.

Results

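Among the gene models of soybean, 212 of 66210 were present in the filling and in the yellowing cotyledon and stood at least 4-fold lower in both the dry seed and the seedling cotyledon. They were chosen by these levels. Each had 1 to 500 scaled CPM in the mid-maturation library (reads per 1000000, with library sizes adjusted by the trimmed mean of M-values). The lower of its mid- and late-maturation levels was at least 4-fold above the higher of its dry-seed and seedling levels. Dry-seed and seedling counts under 3 were set to 3 for this ratio, so that a ratio could be formed for transcripts that were barely read. The same limits on the mid-maturation level were met by 26145 gene models, of which the members made up 0.811%.

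All samples came from the soybean cultivar Williams 82, grown in a greenhouse, and the labels name no treatment or mutation. B1 was a library of green cotyledons from mid-maturation embryos, with a pair weighing 150 to 250 mg. AA1 was made from yellow cotyledons of late-maturation embryos, with a pair weighing 200 to 350 mg, and the third library from whole dry seeds of 100 to 250 mg. The seedling library came from cotyledons collected 6 days after imbibition. Each stage had 1 library of polyadenylated RNA, so differences between stages have no replicate check and carry no p-value.

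In both embryo libraries the seed coat and the axis had been removed, whereas the dry seeds were whole and held a small part of each. For every comparison with dry seed, stage and tissue therefore cannot be told apart. The B1 library held 16120894 counts, AA1 38011608, dry seed 21512278 and the seedling library 28190429. A count of 3 corresponded to 0.32, 0.07, 0.13 and 0.07 scaled CPM in the same order. None of the identifiers matched the name table used here, so the members are described by identifier, product names and protein sequences are not given, and the labelled tissues were not checked against marker genes. Intervals are exact 95% binomial intervals and cover counting error only. In such bulk samples fewer cells of a type and less RNA per cell cannot be told apart.

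The cotyledons are the storage organs of the soybean embryo. During mid-maturation they take up sugars and amino acids from the mother plant and lay down storage protein and oil, and in late maturation they lose chlorophyll and begin to dry. Dry seeds keep a pool of stored messenger RNA that is available when water returns. After imbibition the reserves are broken down and the cotyledon greens. Transcripts can thus end with filling, end with drying, or be stored, and the members are transcripts still read in late maturation but low in the stored pool.

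The median level of the members was lower at each later stage. It was 16.8 scaled CPM at B1, 5.39 at AA1, 0.67 for the dry seed and 0.21 for the seedling. A strict order with B1 highest, AA1 next, then dry seed and seedling lowest held for 125 of the 212 (59.0%), against 5.46% of the gene models within the B1 limits. The choice of members fixes most of this order and bears on the rest, so the share is a description. Together the members took 0.718% of all B1 reads (interval 0.713% to 0.722%) and 0.530% of AA1 reads (0.527% to 0.532%). Of the dry-seed reads they took 0.0744% (0.0733% to 0.0756%), and of the seedling reads 0.0424% (0.0417% to 0.0432%).

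**Figure D1:**
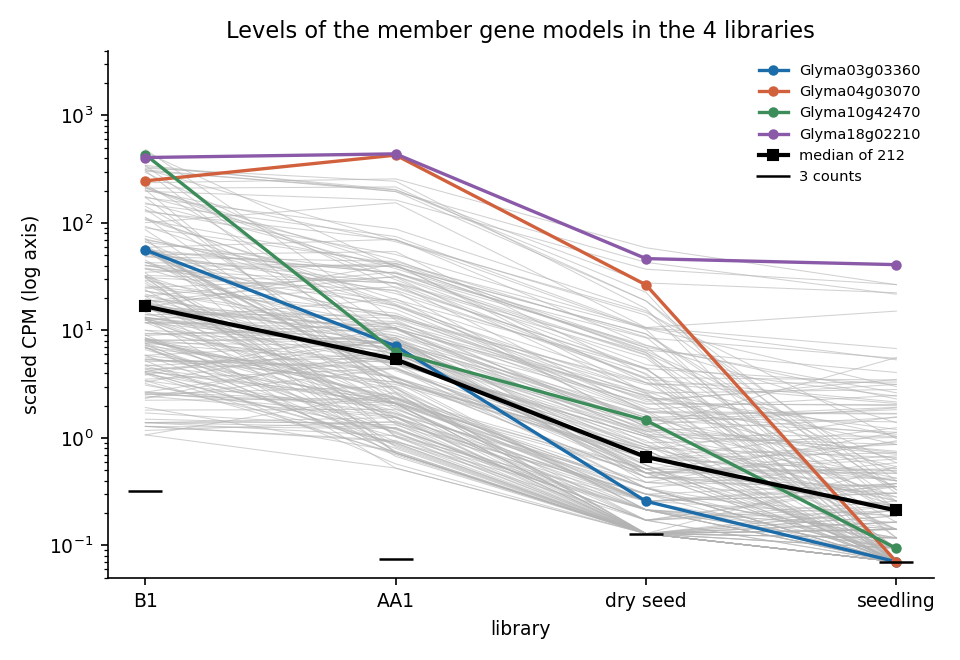
Scaled CPM (log axis) of the 212 members in the 4 libraries, each grey line a gene model, the black line the median and the short bars the level of 3 counts, at which lower values are drawn. The median goes down at each step, through 16.8, 5.39, 0.67 and 0.21 scaled CPM, while Glyma04g03070 and Glyma18g02210 stand at 428 and 439 in AA1.

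Few members were absent from the dry seed. A read was found in dry seed for 205 of the 212. The 7 with 0 counts there were 3.30%, against 3.57% of the gene models within the B1 limits. Counts under 3 were found for 49 members in the seedling and for 29 in dry seed. Of the 26145 gene models within the B1 limits, 425 and 1886 were under 3 there. In the seedling 23 members (10.8%) had 0 counts, against 0.849% within those limits. The rule asks for low levels in both libraries, so these numbers are a description. Counts were under 3 in both for 12 members, and 0 members were without any read in both. At least 1 scaled CPM was still present for 43 members in the seedling and for 91 in dry seed. Most members were thus low in the dry seed rather than missing from it. The share without a read in dry seed was near that of all gene models within those limits. The lower of the B1 and AA1 levels exceeded the higher of the other pair by a median of 5.79-fold, with 69 members under 5-fold, 53 at 8-fold or more and 26 at 10-fold or more. Just inside the limit stood Glyma15g11470 and Glyma06g44440, with ratios of 4.003 and 4.02, and just outside it Glyma14g08340 and Glyma16g02350, with 3.99 and 3.98.

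Dry seed was the tighter of the 2 conditions for most members. It was at least 4-fold below AA1 in 9.75% of gene models tested (here and below, those reaching 1 scaled CPM in 1 of the 2 libraries or both) and at least 4-fold below B1 in 24.1%. The seedling was at least 4-fold below AA1 in 10.7% and at least 4-fold below B1 in 11.8%. All 212 members meet these 4 conditions by choice. The higher of their 2 low levels was the seedling one for 47 members and the dry-seed one for 165. Dry seed stood at least 10-fold below AA1 for 50 members and at least 16-fold for 16, and the seedling did so for 139 and 95. Shares at these distances were not computed over all gene models. Low counts were raised to a level worth 0.13 scaled CPM in dry seed and 0.07 in the seedling. Wide distances are thus easier to reach in the seedling, and nothing is drawn from the difference between these counts.

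The 2 conditions of the rule overlapped in part. Within the B1 limits, 1840 gene models had both maturation levels at least 4-fold above dry seed, and 212 of them (11.5%) were also at least 4-fold above the seedling, a condition met by 5.24% of all gene models within those limits. The other 1628 had medians of 7.26 scaled CPM at B1, 2.196 at AA1, 0.30 for the dry seed and 7.01 for the seedling. In 1401 of these the seedling stood at least 4-fold above dry seed. Seen from the other side, 1369 gene models had both maturation levels at least 4-fold above the seedling, and the members were 15.5% of them, while 7.04% of gene models within the limits met the dry-seed condition. These counts describe how the rule divides the libraries and are not independent of it.

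The upper limit of 500 scaled CPM in B1 keeps out the most heavily read transcripts of this profile. Above it, 31 gene models met every other condition, and their share of reads was 39.7% at B1, 5.45% at AA1, 0.85% for the dry seed and 0.0529% for the seedling. Of these, 20 were at least 4-fold lower in AA1 than in B1. The lower limit kept out 13 gene models.

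AA1 and B1 were also set against each other, as a description only. The rule names no direction between them but bears on their ratio: it limits the level in B1 and not in AA1, and a member 4-fold higher in AA1 needs dry-seed and seedling levels at least 16-fold below AA1. At least 4-fold lower levels in AA1 were found for 76 of 212 members (35.8%), against 16.6% of the 29154 gene models tested. At least 4-fold higher levels were found for 0 members, against 13.2%. Among the gene models within the same B1 limits, 18.2% were at least 4-fold lower and 8.07% at least 4-fold higher. These shares hold for groups chosen differently and nothing is drawn from the difference. The median log2 ratio of AA1 to B1 was -1.17 for the members and 0.19 over all gene models tested. Total counts move the median of all gene models to 1.15, and with the same 212 members 45 are then at least 4-fold lower and 5 at least 4-fold higher in AA1. Their median is then -0.31. Counting error alone left 38 members whose interval included equal levels, while 154 were lower and 20 higher in AA1. The same counts were not made over all gene models.

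Members were then divided by how far AA1 lay from B1. AA1 was at or above B1 in 35 members, lower by under 2-fold in 58, 2- to 4-fold lower in 43, 4- to 16-fold lower in 48 and at least 16-fold lower in 28. The 35 at or above B1 had medians of 5.87 scaled CPM at B1, 8.56 at AA1, 1.12 in the dry seed and 0.19 in the seedling. The 28 with the lowest AA1 to B1 ratios had medians of 60.6, 2.15, 0.26 and 0.13 in the same order. The median log2 ratios of dry seed to AA1 were -3.18, -2.65, -2.64, -2.61 and -2.72, from the class at or above B1 to the class at least 16-fold lower. The rule requires -2 or less in each class, and the floor limits the value from below, so the classes are not compared in it. The 28 members of the last class took 0.00939% of AA1 counts and 0.192% of B1 counts, and the 35 of the first took 0.207% of AA1 counts and 0.0893% of B1 counts.

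**Figure D2:**
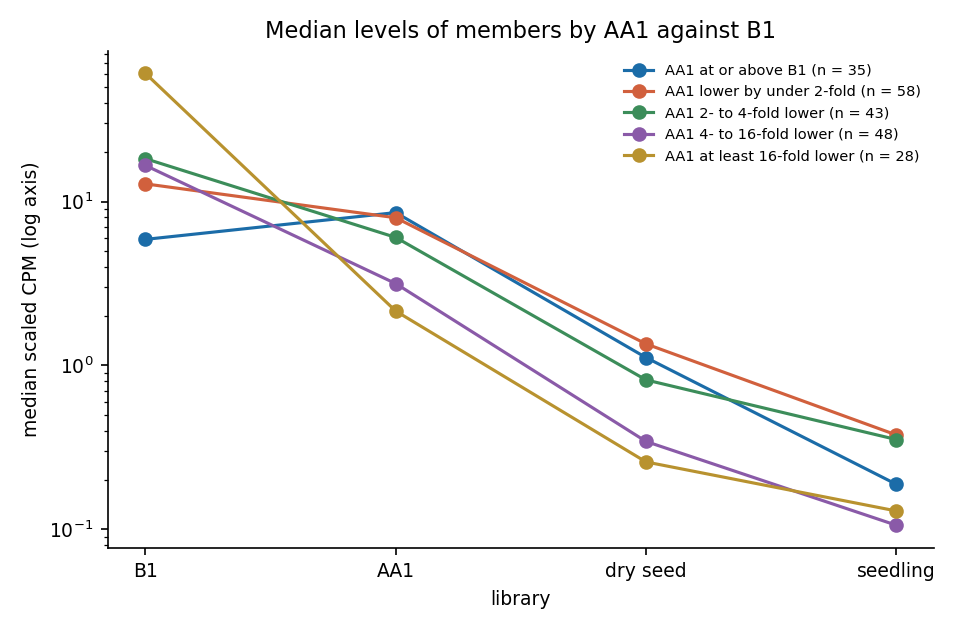
Median scaled CPM (log axis) in the 4 libraries for members divided by AA1 against B1, with the number of members of each class in the legend. The class at least 16-fold lower in AA1 starts at 60.6 in B1, and all 5 classes go down from AA1 to dry seed.

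Some members were higher in late than in mid-maturation, 35 with TMM scaling, 24 to 83 with the other scalings. The largest such ratio among members with at least 10 scaled CPM in B1 or AA1 was that of Glyma06g15040, at 3.85 scaled CPM at B1, 10.7 at AA1, 0.47 in the dry seed and 0 counts in the seedling. AA1 was 2.79-fold above B1 (1.98 to 4.04), and dry seed was 22.7-fold below AA1 (12.6 to 45.9). Glyma01g32190 had 16.3, 41.5 and 2.66 scaled CPM and 0 counts in the seedling. With total counts in place of the scaled library sizes, the gap of Glyma01g32190 was 3.29, under the limit.

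Glyma04g03070 combined a high maturation level with almost no seedling reads. It had 247 scaled CPM at B1, 428 at AA1, 26.5 in the dry seed and 0.05 in the seedling, where 2 reads were counted. Dry seed was 16.1-fold below AA1 (14.9 to 17.5). Glyma19g02710, at 18.7, 31.8, 4.42 and 3.15, and Glyma18g07870, at 20.8, 35.1, 4.81 and 2.45, were 1.70- and 1.69-fold higher in AA1 than in B1. Their seedling levels were 0.713 and 0.509 times those of dry seed, far closer than in Glyma04g03070. With total counts, neither Glyma19g02710 nor Glyma18g07870 was among the members.

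At the other end stood members that had nearly ended by late maturation. Glyma07g08950 had 204 scaled CPM at B1, 2.35 at AA1, 0.34 in the dry seed and 0.07 in the seedling, so that AA1 was 86.9-fold below B1 (70.6 to 108). Glyma08g10850 was at 61.6, 0.72, 0.13 and 0.02, an 85.1-fold distance between AA1 and B1 (58.6 to 128). The seedling value rests on 1 read and the dry-seed value on 3. The place of Glyma08g10850 among the members depends on low counts, as its gap was 1.69-fold with a floor of 10 counts in place of 3. For Glyma07g08950 the gap was 5.47-fold with that floor, and 2.49-fold with a pseudocount of 1 scaled CPM.

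Glyma10g42470 and Glyma20g28650 also stood far lower in AA1 than in B1, by 68.9-fold (60.6 to 78.5) and 60.8-fold (52.7 to 70.4). Glyma10g42470 had 431, 6.26, 1.46 and 0.09 scaled CPM through the series, and dry seed was 4.29-fold below AA1 (2.99 to 6.34). Glyma20g28650 had 306, 5.04 and 0.77 scaled CPM and 0 counts in the seedling, with dry seed 6.53-fold below AA1 (4.02 to 11.2). Glyma01g40850 was at 71.3, 1.02, 0.21 and 0.07. Of these 5 steep members, only Glyma20g28650 kept the 4-fold distance at the interval bound nearest to 1.

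The members with the widest gap between the maturation pair and the later pair were led by Glyma03g03360. It had 56.1 scaled CPM at B1, 7.16 at AA1, 0.26 in the dry seed from 6 reads and 0 counts in the seedling. Dry seed was 27.8-fold below AA1 (12.6 to 76.4). Glyma14g36370 had 7.90 and 2.87 scaled CPM in B1 and AA1, with 1 read in dry seed and 3 in the seedling. Against the floor of 3 counts its gap was 22.3-fold.

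Glyma03g07950, at 86.5, 2.62, 0.13 and 0.14 scaled CPM, Glyma16g05480, at 16.1, 3.52, 0.21 and 0, and Glyma01g30610, at 18.4, 2.10, 0.04 and 0.12, were already much lower in AA1 than in B1. In contrast, Glyma09g32210 was level in the maturation stages and level again afterwards, with 8.22 and 7.71 scaled CPM in B1 and AA1 and 0.47 in both dry seed and seedling. Its AA1 to B1 ratio of 0.938 had an interval that included 1 (0.728 to 1.22). Glyma14g05210 had 4.17, 2.10 and 0.13 scaled CPM and 0 counts in the seedling. Glyma02g43670 had the best counted gap of the 8, with 69.4 scaled CPM at B1, 27.4 at AA1, 1.76 in the dry seed from 41 reads and 0 counts in the seedling, and dry seed 15.6-fold below AA1 (11.4 to 21.8). All 8 of these members stayed members under each of the 4 other library scalings and at the interval bound. With a pseudocount of 1 scaled CPM, gaps were under 4-fold for Glyma14g36370 (3.62), Glyma03g07950 (3.17), Glyma16g05480 (3.72), Glyma14g05210 (2.74) and Glyma01g30610 (2.77). The rest of the 8 stayed above it.

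Reads of the members were concentrated in a few gene models, and the 10 most read of each library took 30.3% of member counts at B1, 50.7% at AA1, 46.0% for the dry seed and 62.9% for the seedling. Gene lengths are not used here, so levels of different gene models are not ranked. By counts in AA1 the first was Glyma18g02210, with 406 scaled CPM at B1, 439 at AA1, 46.6 in the dry seed and 40.9 in the seedling. It was 9.43-fold lower in dry seed than in AA1 (8.87 to 10.03), and seedling and dry seed were nearly level, with a seedling to dry-seed ratio of 0.878 (0.814 to 0.948). Glyma09g32850 had 237, 257, 58.8 and 26.6 scaled CPM, and its gap of 4.03 was close to the limit. Both were well read in all 4 libraries, and neither was among the gene models that passed with total counts in place of scaled library sizes.

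The seedling was likewise set against the dry seed. Among members with at least 1 scaled CPM in either, 42 of 95 (44.2%) were at least 4-fold lower in the seedling, against 15.7% of the 31169 gene models tested. At least 4-fold higher levels were found for 1 of the 95, against 31.5%. Both levels are capped by the rule, which limits how far either can rise, so these shares too are a description. Over all 212 members, 62 (29.2%) were at least 4-fold lower in the seedling and 2 (0.943%) at least 4-fold higher. Among gene models within the B1 limits the shares were 14.6% and 23.8%, and the rule bears on the members here too. The median log2 ratio of the members was -0.87. That median equals the value of a member under 3 counts in both libraries, since 3 counts are worth 0.07 scaled CPM in the seedling library and 0.13 in the dry-seed library. By counting intervals 98 members were lower in the seedling, 11 were higher and 103 could not be separated. Such interval counts were not made over all gene models, so nothing is drawn from them.

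**Figure D3:**
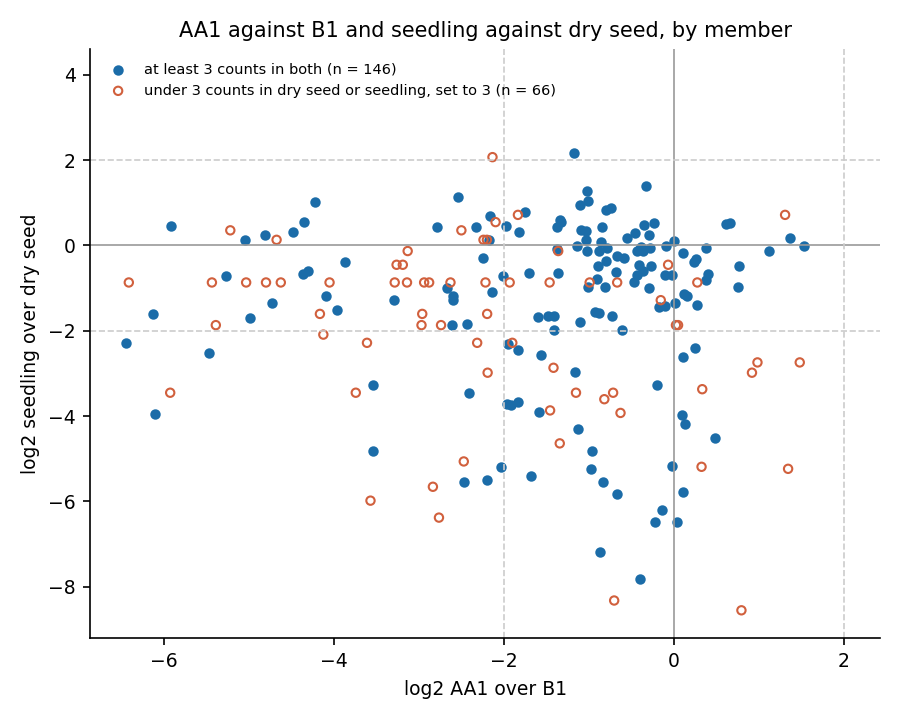
Log2 ratio of AA1 to B1 (horizontal) and of seedling to dry seed (vertical) for each member; filled points have at least 3 counts in both dry seed and seedling (146 members) and open ones do not (66). No point lies right of 2, 76 lie at or left of -2, and 62 lie at or below -2 on the vertical axis.

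The 62 members that were at least 4-fold lower in the seedling than in dry seed were the better read ones, with medians of 48.8 scaled CPM at B1, 16.4 at AA1, 2.43 in the dry seed and 0.07 in the seedling. The 47 at or above the dry-seed level, with counts under 3 set to 3, had medians of 12.5, 2.65, 0.30 and 0.52. Depth bears on this split, since a 4-fold distance below dry seed cannot be seen for a member near 3 reads in dry seed. At least 10 reads in dry seed were counted for 57 of the 62 and for 21 of the 47.

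The widest drops between dry seed and seedling were found in Glyma04g03070, given above, and in 3 more members. Glyma09g09930 had 333 scaled CPM at B1, 205 at AA1, 22.6 in the dry seed and 0.05 in the seedling, with 2 reads in the seedling and 527 in dry seed. Glyma19g34780 had 323, 244, 15.97 and 0.07, and Glyma14g24860 had 127, 69.5, 10.2 and 0.07, each with 3 seedling reads. The seedling level was 481-fold below dry seed in Glyma09g09930 (132 to 3982), 226-fold below it in Glyma19g34780 (76.8 to 1102) and 145-fold below it in Glyma14g24860 (49.0 to 707). All 3 were low in the dry seed and had almost no reads 6 days after imbibition.

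With counts under 3 set to 3, 47 members were at or above the dry-seed level in the seedling with TMM scaling. With the other scalings 37 to 76 of the same members were. The 4 with the highest ratios, among members with at least 10 counts in 1 of the 2 libraries, were as follows. Glyma18g52250 had 52.7 scaled CPM at B1, 23.3 at AA1, 1.24 in the dry seed and 5.60 in the seedling, 4.50-fold above dry seed (3.05 to 6.86). Glyma02g05650 had 12.9, 2.95, 0.09 and 0.54, and its dry-seed value rests on 2 reads. Glyma07g05760, at 9.40, 7.51, 0.43 and 1.13, and Glyma18g25860, at 17.4, 8.59, 0.39 and 0.94, were 2.63- and 2.43-fold higher in the seedling. In all 4 the dry seed held the lowest level of the series and the seedling remained below both maturation stages. The rule fixes the second for every member, and the choice by ratio fixes the first. With total counts their gaps were 2.90 for Glyma18g52250, 3.80 for Glyma02g05650 and 3.21 for Glyma07g05760, all under 4-fold. Glyma18g52250 was also under it, at 3.95, with totals without the 100 most abundant gene models and, at 3.92, after thinning every library to the depth of the shallowest.

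All 212 members carried a chromosome number in the identifier, and each of the 20 chromosomes held some. The share of members among gene models within the B1 limits ran between 0.296% on chromosome 11 (4 of 1353) and 1.27% on chromosome 17 (17 of 1339). Chromosome 6 also held 17, of 1578. No build is given in the sources used here, so start and end coordinates are not reported.

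A few members stood next to each other in the order of identifiers. There were 9 such members (4.25%), in 1 run of 3 and 3 pairs. Of the 196 places directly beside a member that were filled by a gene model within the B1 limits, 10 (5.10%) were themselves members, against 0.811% of all gene models within those limits. Neighbouring gene models can be similar copies, and counting of reads that map to several places is not described, so their values may not be independent.

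The run lay on chromosome 6. Glyma06g45410 had 176 scaled CPM at B1, 45.2 at AA1, 6.18 in the dry seed and 0.47 in the seedling. Glyma06g45420 followed with 108, 19.4, 4.42 and 0.09, and Glyma06g45430 with 23.9, 1.37, 0.30 and 0.05. All 3 went down at every step, and AA1 was 3.88-fold (3.63 to 4.15), 5.56-fold (5.06 to 6.11) and 17.4-fold (12.9 to 23.9) below B1. The next gene model on one side, Glyma06g45440, had the opposite order at the end, with 4.59, 5.59, 2.53 and 65.8 scaled CPM, and the one on the other side, Glyma06g45400, had 0.64, 0.50, 0.13 and 2.09. A run ends by definition at a gene model that is not a member, so nothing is drawn from its ends. Glyma06g45400 was also lower in dry seed than in AA1, by 3.88-fold (1.15 to 20.4), on 3 and 20 reads. Its B1 to AA1 ratio of 1.28, with 6 reads in B1, had an interval that included 1 (0.422 to 3.31).

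**Figure D4:**
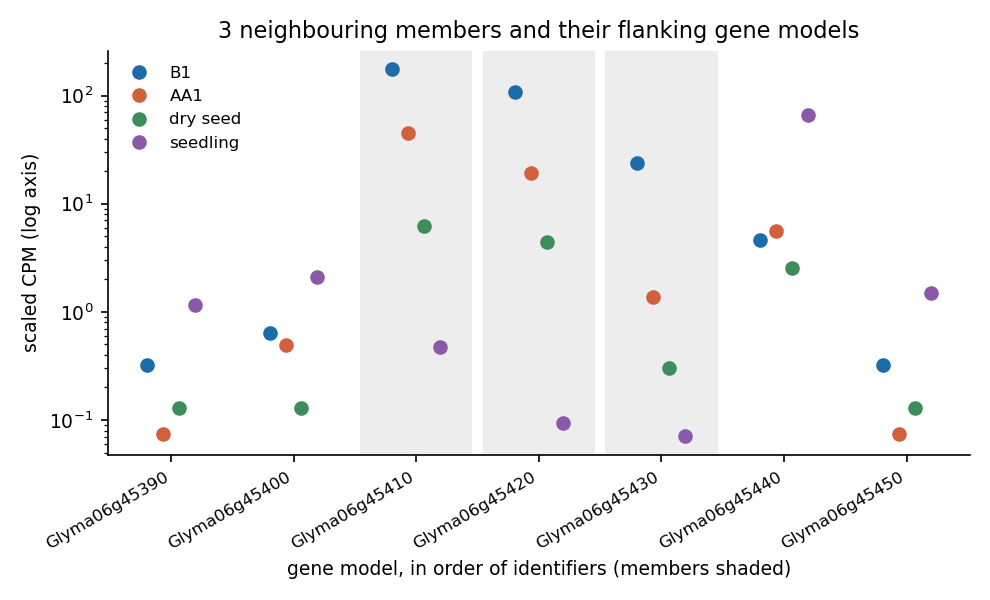
Scaled CPM (log axis) in the 4 libraries for the run of 3 members on chromosome 6 (shaded) and 2 gene models on each side, in the order of identifiers; values under 3 counts are drawn at the level of 3 counts. The members are highest in B1 and lowest in the seedling, while Glyma06g45440 reaches 65.8 in the seedling.

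The pairs lay on chromosomes 17, 2 and 1. On chromosome 17, Glyma17g36700 had 20.9, 7.06, 0.56 and 0.09 scaled CPM and Glyma17g36710 had 16.2, 10.5, 1.07 and 0. On chromosome 2, Glyma02g38680 had 5.45, 3.32, 0.77 and 0.02 and Glyma02g38690 had 7.26, 3.27, 0.77 and 0, so that the 2 were close at every stage. On chromosome 1, Glyma01g36540 had 12.9, 0.52, 0.04 and 0 and Glyma01g36550 had 6.94, 1.12, 0.09 and 0, with 1 and 2 reads in dry seed. Both gene models of the chromosome 17 pair kept the 4-fold distance at the interval bound, and the other 4 did not.

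Membership was partly a matter of scaling and of counting error. Of the 212, 125 were members under all 4 other library scalings, 68 under 3 of them, 17 under 2 and 2 under 1. The 4-fold distance held at the interval bound nearest to 1, for all 4 ratios of a maturation stage to a later stage, in 94 members. Total counts gave 134 gene models, of which 133 were members.

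**Figure D5:**
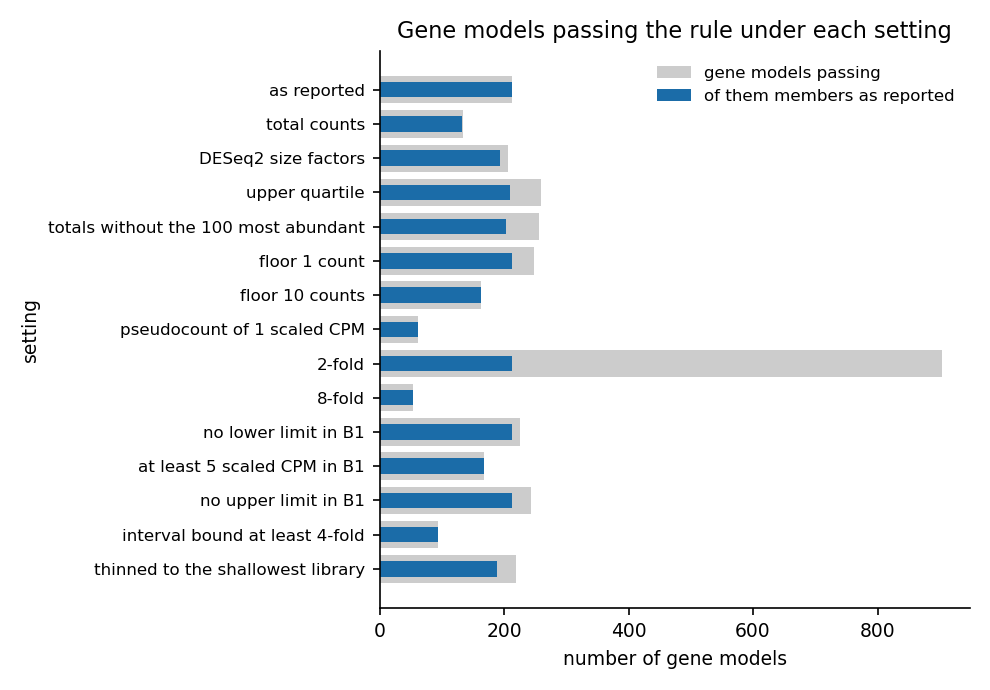
Number of gene models passing the rule under each setting (grey bars) and how many of these are among the 212 members (blue bars). The number lies between 53 at 8-fold and 903 at 2-fold, and a pseudocount of 1 scaled CPM leaves 62.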

How the data were processed

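The values deposited by the authors are raw counts, the number of reads mapped to a gene model per the file headers. The submitters' processing notes name Bowtie, with no version. The handling of multiply mapped reads, like the build, annotation and counting program, is not given in the sources used here. Per the labels' protocols, RNA went through 2 rounds of poly-A selection and libraries were not made with strand marks, so overlapping antisense genes cannot be separated.

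Library sizes were scaled with TMM in edgeR 4.0.16 (R 4.3.3) over 4 libraries, and the factors of B1, AA1, dry seed and seedling were 0.581, 1.05, 1.08 and 1.51. Ratios, exact intervals and shares were computed in Python 3.11.15 with scipy 1.17.1. As each stage had 1 library, nothing was tested across samples. A gene model was tested in a pair of libraries if either of them gave it 1 scaled CPM or more, and counts under 3 were set to 3. 0 rows lacked an identifier, and 0 of the identifiers matched a RefSeq table of 59048 genes, so the keyword lists of gene groups and tissue markers gave no result.

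Members and lists were chosen with earlier results of these data known. Named gene models follow a rule. It takes the 8 members with the widest gap between the maturation and the later pair. It takes the 5 at each end of the AA1 to B1 ratio, with at least 10 scaled CPM in 1 of the 2. It takes the 4 with the most AA1 counts and the 4 at each end of the seedling to dry-seed ratio, with at least 10 counts in 1 of the 2. It adds the 2 just inside and the 2 just outside the limit, and neighbouring members. Extreme ratios were thus picked, and their intervals do not allow for this. The procedure was checked on simulated counts, drawn with counting error only and with the scaled library sizes taken as known. That check cannot bear on the scaling or on differences between samples of a stage.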

Additional observations from a re-analysis of the deposited data

How the results depend on the processing

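The number of members, 212, was 134 with total counts, 62 with a pseudocount of 1 scaled CPM, 903 at 2-fold, 53 at 8-fold and 94 at the interval bound. It stayed within 1.5 times under the other 9 alternatives. Added after the data were seen, the rule without the seedling gave 1840 gene models and the rule without dry seed 1369. The median log2 ratio of AA1 to B1, -1.17, was -1.70 with a floor of 1 count, -0.81 with the pseudocount and -1.58 with at least 5 scaled CPM in B1. The median log2 ratio of seedling to dry seed, -0.87, was -0.59 with totals without the 100 most abundant gene models and -0.65 after thinning to 16120894 counts. These alternatives choose the members anew. With the same 212 members, total counts moved the medians to -0.31 and -0.39. Neither median changed sign under any alternative for which it was computed, which leaves out 2-fold, 8-fold and the interval bound. Of the 38 named members, 11 kept a 4-fold gap under all 8 alternatives of scaling, floor, pseudocount and depth, 26 did with total counts and 13 with the pseudocount. No paired analysis was possible because each stage has 1 library. Low counts in dry seed and seedling limit the gaps of the less read members, and B1, the shallowest library, resolves low levels least.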
